A study of Mus musculus with 407 samples.

Results

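The 7 genes described here encode subunits of nicotinic acetylcholine receptors: Chrna1 (alpha1), Chrnb1 (beta1), Chrnd (delta), Chrne (epsilon), Chrng (gamma), Chrna9 (alpha9) and Chrnb2 (beta2). They were chosen by gene symbol, and all 7 stand among the 24458 symbols of the count tables. RNA was sequenced from the diaphragm (98 libraries), gastrocnemius (104), soleus (103) and tibialis anterior (102) of C57BL/6J mice, 204 libraries from females and 203 from males, at 6 months of age and at 12, 18, 21, 24 or 27 months. Each of the 48 groups of 1 muscle, sex and age held 6 to 10 libraries. All mice were untreated animals of this inbred strain without an engineered allele. Tissues of 1 age were collected on the same day, so age and collection day cannot be told apart. No label ties the muscles of 1 mouse together, and libraries were treated as separate samples. In whole-muscle RNA, fewer cells of a type and less RNA per cell cannot be told apart.

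The muscle receptor is the ligand-gated cation channel that turns acetylcholine released by the motor nerve into depolarisation of the muscle fibre. Receptors of fetal fibres combine alpha1, beta1 and delta with gamma, and after birth epsilon takes the place of gamma at the synapse. When a fibre loses its nerve, the alpha1, beta1, delta and gamma genes are transcribed again along the fibre, a programme driven largely by myogenin and related myogenic factors acting on E-boxes (CANNTG), while synaptic transcription of epsilon depends on an N-box (CCGGAA) bound by Ets factors. Alpha9 and beta2 are known mainly from cochlear hair cells and from neurons.

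The promoter letters of the gamma, epsilon, alpha1 and beta1 genes are shown because these genes carry the contrast described below, 3 that rose with age and 1 that did not pass the call. The delta gene also rose, but the promoter source used here held no window for it. The windows hold the 250 bases before the RefSeq transcript start (GRCm38.p6, the patch release of mm10), 5′ to 3′, and capitals mark E-boxes and N-boxes, searched on both strands.
Chrng promoter, chr1:87205561-87205810, plus strand: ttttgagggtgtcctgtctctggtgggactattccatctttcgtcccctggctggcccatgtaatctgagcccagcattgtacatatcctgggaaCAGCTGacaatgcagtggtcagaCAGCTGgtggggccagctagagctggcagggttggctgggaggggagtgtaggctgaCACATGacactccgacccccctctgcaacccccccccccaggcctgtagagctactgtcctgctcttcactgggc
Chrne promoter, chr11:70619195-70619444, minus strand: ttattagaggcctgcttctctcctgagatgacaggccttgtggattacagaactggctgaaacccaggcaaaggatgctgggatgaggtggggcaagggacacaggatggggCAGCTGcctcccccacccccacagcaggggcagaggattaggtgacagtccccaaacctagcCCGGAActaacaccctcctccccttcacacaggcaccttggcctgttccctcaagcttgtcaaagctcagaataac
Chrna1 promoter, chr2:73580339-73580588, minus strand: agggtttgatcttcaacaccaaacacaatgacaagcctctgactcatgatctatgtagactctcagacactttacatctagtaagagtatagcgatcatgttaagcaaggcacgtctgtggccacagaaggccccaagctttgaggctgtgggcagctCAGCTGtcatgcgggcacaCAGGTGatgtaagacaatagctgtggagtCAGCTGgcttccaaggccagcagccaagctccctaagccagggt
Chrnb1 promoter, chr11:69795938-69796187, minus strand: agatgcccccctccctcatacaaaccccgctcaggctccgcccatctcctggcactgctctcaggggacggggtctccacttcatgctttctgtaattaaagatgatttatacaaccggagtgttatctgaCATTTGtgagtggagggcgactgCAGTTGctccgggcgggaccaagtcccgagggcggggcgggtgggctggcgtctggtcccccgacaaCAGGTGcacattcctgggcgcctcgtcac
The Chrng, Chrna1 and Chrnb1 windows each held 3 E-boxes and no N-box, and the Chrne window held 1 E-box and 1 N-box. The first base of the E-boxes lay at -155, -132 and -75 before the start of Chrng, at -92, -73 and -44 in Chrna1 and at -119, -96 and -29 in Chrnb1. In Chrne the E-box lay at -138 and the N-box at -76. Such letters are common: of 32851 windows of the same length, 66.2% held an E-box, 12.2% held at least 3 and 12% held an N-box. The windows of Chrna9 and Chrnb2 held 2 and 1 E-boxes and no N-box. A match describes the letters and is not a measured binding site.

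The study's own RT-qPCR oligonucleotides for Chrng are shown because they mark the part of the gamma transcript that its second assay reads. In these lines no letters are capitalised.
Chrng forward primer: ccaacctcatctccctgaatgaac
Chrng probe: agaggaggccctcacaactaacgtc
Chrng reverse primer: gtcgcaccattgcatctctatc
Matched to annotated transcripts, each found Chrng. The probe lay in exon 3 of 12 (chr1:87206476-87206500), the forward primer across exons 2 and 3, and the reverse primer across exons 3 and 4. In the GENCODE annotation of this build, Chrng spans chr1:87204657-87212694, which begins before the RefSeq start used for its promoter, and Chrnd spans chr1:87190607-87200070. Chrna1 lies at chr2:73563215-73580338, Chrnb1 at chr11:69784036-69795943 and Chrne at chr11:70614883-70619216, all on the minus strand. The spans of Chrnb1 and Chrne also begin before the RefSeq starts used, so the last bases of their promoter windows lie inside the annotated gene. Chrna9 lies at chr5:65934921-65977326 on the plus strand and Chrnb2 at chr3:89746195-89764632 on the minus strand. Chrnd and Chrng are neighbours on the plus strand of chromosome 1, with 4586 bases between them in the annotation. Chrne overlaps 4930544D05Rik over 1043 bases and Chrnb2 overlaps Adar over 7252 bases, in both cases on the opposite strand. The libraries were strand-specific, but no source used here tells whether counting used the strand, so reads of such pairs may not be separated. Chrna9 also overlaps 2 short unconfirmed transcripts of its own strand.

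Depth ranged from 38583802 to 300089909 counts on genes per library, with a median of 72766895. Levels of the subunit genes are given as CPM, the count relative to a library size that was scaled with TMM (a trimmed mean of M values). The CPM sums of marker genes, and the limit for a count of 0, use the unscaled total count. Chrna1, Chrnb1, Chrnd and Chrne had counts in every library, with medians of 1043, 1403, 201 and 287 counts. Chrng, Chrna9 and Chrnb2 were sparse, with medians of 9, 11 and 18 counts, and were at 0 in 49, 64 and 6 libraries. A count of 0 allows up to 3 counts, or 0.0412 CPM at the median depth, by counting error alone. Slow-fibre markers (Myh7, Tnnt1, Tnni1 and Myl3) summed to a median of 8515 CPM in soleus, 1106 in diaphragm, 506.5 in gastrocnemius and 15.2 in tibialis anterior, the order known for these muscles. In 6 diaphragm libraries this sum was under 700 CPM, and 2 of these also held 11690 and 34385 CPM of liver markers. Without these 6 libraries no count of subunit genes called in a comparison that uses the diaphragm changed. Summed markers of neurons reached at most 2.05 CPM in any library.

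The alpha1 and delta genes were highest in soleus, whereas beta1 and epsilon were highest in the fast gastrocnemius and tibialis anterior. Over the 12 groups of each muscle, Chrna1 averaged 45.7 ± 4.23 CPM (SD of group means, n = 12) in soleus, 18.7 ± 5.26 in gastrocnemius, 13.1 ± 4.71 in tibialis anterior and 9.95 ± 0.720 in diaphragm. Chrnb1 averaged 28.8 ± 4.77 CPM in tibialis anterior, 27.6 ± 5.59 in gastrocnemius, 17.2 ± 2.99 in soleus and 12.6 ± 1.10 in diaphragm. The order of the muscles thus differed between these 2 genes, and tibialis anterior and gastrocnemius differed by less than the spread of their group means for Chrnb1. Chrnd averaged 6.61 ± 1.09 CPM in soleus and between 2.21 and 2.54 in the other muscles. Chrne averaged 6.58 ± 0.387 CPM in gastrocnemius, 5.45 ± 0.386 in tibialis anterior, 3.41 ± 0.353 in soleus and 2.01 ± 0.306 in diaphragm. The groups of the 4 muscles did not overlap for Chrne except that gastrocnemius began at 5.95 CPM and tibialis anterior ended at 5.97.

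Per kilobase of 1 RefSeq transcript each, which allows levels of different genes to be compared, Chrnb1 was the most abundant subunit gene in gastrocnemius (12.8 CPM per kb), tibialis anterior (13.4) and diaphragm (5.82). In soleus Chrna1 was higher, with 10.4 CPM per kb against 7.97 for Chrnb1. Chrne stood at 4.13 and 3.43 CPM per kb in gastrocnemius and tibialis anterior, above Chrnd at 0.819 and 0.756, whereas in soleus Chrne and Chrnd were close at 2.14 and 2.26. The fetal Chrng stayed far below both, at 0.0246 CPM per kb in diaphragm and between 0.116 and 0.166 in the limb muscles. Chrna9 was in the same low range in limb muscles (0.181 to 0.285) and at 0.0136 in diaphragm, where 53 of 98 libraries were at 0. Chrnb2 stood between 0.0280 and 0.0524 CPM per kb. The Chrng averages mix ages, and its lowest group means were 0.0348 CPM in gastrocnemius and 0.0331 in tibialis anterior. Both lay within the range of the diaphragm groups, 0.0328 to 0.108 CPM.

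**Figure D1:**
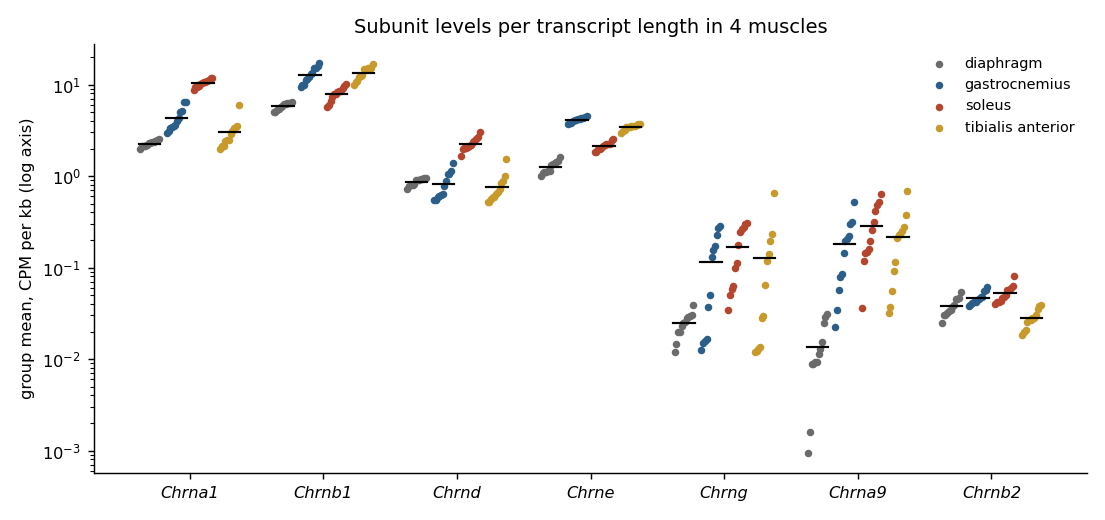
Level of each subunit gene in 4 muscles, in CPM per kilobase of transcript on a log axis; each point is the mean of 1 of 12 sex and age groups and each bar the mean of those groups. Chrna1 and Chrnd lie highest in soleus, and Chrnb1 and Chrne in gastrocnemius and tibialis anterior. The bars of Chrng and Chrna9 lie lowest in diaphragm, but the lowest limb groups of Chrng overlap the diaphragm groups.

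Muscles were compared pairwise in 1 fit of all libraries, averaged over sexes and ages (edgeR quasi-likelihood test with Benjamini-Hochberg adjustment over 17580 genes, called at a fold above 1.5 and an adjusted p below 0.05). Most muscle pairs called a large share of all genes, so these counts are read against it: 51.4% of genes for diaphragm against gastrocnemius, 38.5% against soleus and 53.3% against tibialis anterior, 29.2% for gastrocnemius against soleus, 14.8% against tibialis anterior, and 31.5% for soleus against tibialis anterior. The 6 pairs called 5, 5, 4, 6, 1 and 6 of the 7 subunit genes in that order. Diaphragm was below gastrocnemius by a log2 difference of -1.73 ± 0.04 (SE) for Chrne, -1.12 ± 0.03 for Chrnb1 and -0.87 ± 0.04 for Chrna1. Soleus stood above tibialis anterior by 1.86 ± 0.04 for Chrna1 and 1.64 ± 0.06 for Chrnd, and below it by -0.68 ± 0.04 for Chrne. Between the 2 fast limb muscles the count of 1 of 7 was near the 14.8% of all genes called for that pair. The gene called there was Chrnb2, higher in gastrocnemius by 0.76 ± 0.11. The averages over ages include older limb groups in which Chrng was called higher than at 6 months. By these averages, Chrng differed between diaphragm and gastrocnemius (-1.47, adjusted p = 5.89e-06) and between diaphragm and tibialis anterior (-1.21, adjusted p = 0.00138). With the run of sample numbers as a term these values were -1.23 (adjusted p = 0.247) and -0.10 (adjusted p = 0.97). That term was set within each muscle, so it compares the muscles at a single run of each. It therefore cannot decide whether the differences hold across runs.

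Of the 7 genes, the gamma gene had the largest log2 fold change in each limb muscle and sex at 27 months by edgeR. In soleus that of Chrna9 was larger at 24 months (2.09 against 1.57 in females and 3.08 against 1.71 in males) and, with limma-voom, in females at 27 months (2.45 against 1.37). In female gastrocnemius Chrng had 0 to 0.0904 CPM (median 0.0400, n = 8) at 6 months and 0.271 to 1.04 (median 0.841, n = 10) at 27 months, a log2 fold change of 4.22 ± 0.57 (adjusted p = 1.31e-07). In male gastrocnemius it went from 0 to 0.124 CPM (median 0.0200) to 0.256 to 2.15 (median 0.438), a change of 4.35 ± 0.70 (adjusted p = 4.87e-06). In both sexes every gastrocnemius library of 27 months lay above every library of 6 months.

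In female tibialis anterior Chrng was 0 to 0.152 CPM (median 0.0163) at 6 months and 0.236 to 8.29 (median 0.863) at 27 months, a log2 fold change of 5.65 ± 0.87 (adjusted p = 3.34e-06). The groups did not overlap, and the 27-month group was wide. In males it was 0 to 0.0722 CPM (median 0.0364) and 0.0519 to 0.792 (median 0.364), a change of 3.36 ± 0.68 (adjusted p = 0.000325) with some overlap. The male call was lost with the Bonferroni adjustment of the edgeR test (adjusted p = 0.131).

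Soleus already held more Chrng at 6 months, 0.0918 to 0.279 CPM (median 0.158) in females and 0.0139 to 0.303 (median 0.0691) in males. At 27 months it held 0.0736 to 3.00 CPM (median 0.332) and 0 to 2.38 (median 0.697), and the groups overlapped in both sexes. The log2 fold changes were 2.34 ± 0.78 (adjusted p = 0.0287) and 3.16 ± 0.88 (adjusted p = 0.0321). With limma-voom neither passed (1.37, adjusted p = 0.235, and 2.12, adjusted p = 0.327), nor did either with the Bonferroni adjustment. In diaphragm, Chrng stayed between 0 and 0.266 CPM in females and between 0 and 0.216 in males at these ages. Its log2 fold changes there were 0.19 ± 0.88 and 1.23 ± 0.84, and neither passed (adjusted p = 0.978 and 0.376).

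Between those ages, Chrng first passed the call at 21 months by edgeR. DESeq2 called it at 18 months in female gastrocnemius (1.76, adjusted p = 0.0266) and male soleus (2.84, adjusted p = 0.0370), and limma-voom did not. In gastrocnemius its log2 fold change was 1.72 at 18 months (adjusted p = 0.0654), 3.52 at 21 (adjusted p = 1.96e-05) and 3.91 at 24 months (adjusted p = 1.19e-06) in females, and 1.5, 3.29 and 3.56 in males, of which the last 2 passed. In female tibialis anterior it was 4.15 at 21 months and 3.93 at 24 months, of which the latter was lost with limma-voom (3.46, adjusted p = 0.0726). Males passed there only from 24 months, with 1.03 at 21 months (adjusted p = 0.501) and 3.14 at 24 months (adjusted p = 0.00118). In female soleus 21 months passed (2.18, adjusted p = 0.0425) and 24 months did not (1.57, adjusted p = 0.144). The soleus call at 21 months was lost with limma-voom (1.28, adjusted p = 0.287) and without the expression filter (2.17, adjusted p = 0.0507). With the Bonferroni adjustment of the edgeR test, the 21-month calls were lost in male gastrocnemius (adjusted p = 0.358), female tibialis anterior (adjusted p = 0.486) and female soleus. At 24 months it removed those in male gastrocnemius (adjusted p = 0.0671) and in female and male tibialis anterior (adjusted p = 0.848 and 0.389). The female gastrocnemius calls stayed.

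**Figure D2:**
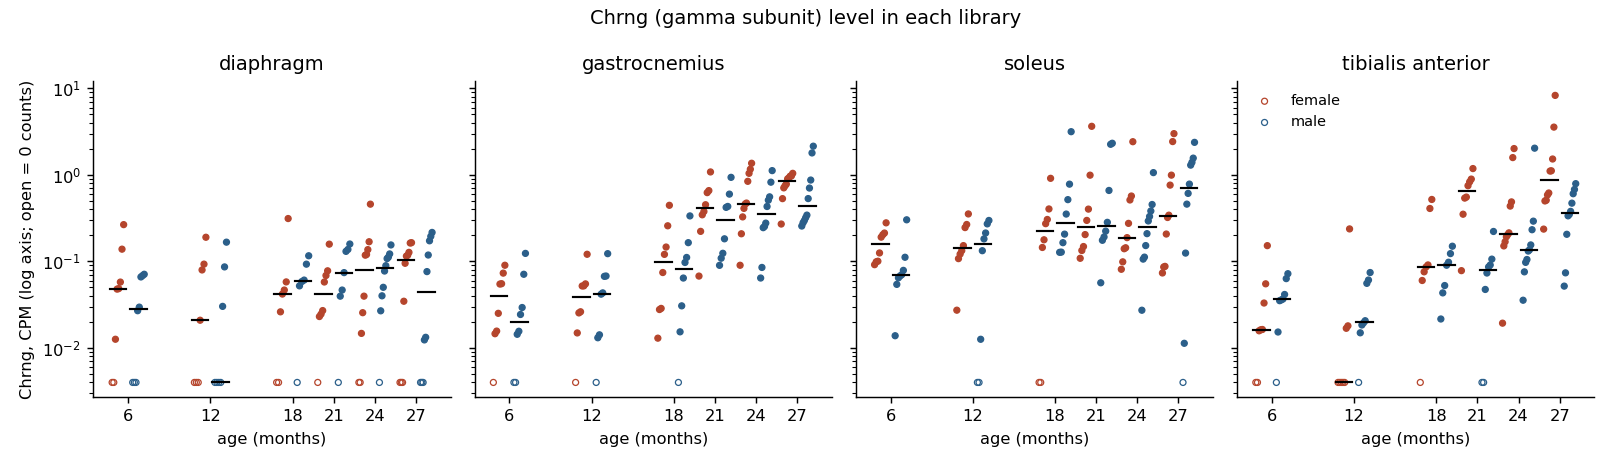
Chrng level in CPM (log axis) in each library by age, muscle and sex; bars are group medians and open symbols at the bottom are libraries with 0 counts. In gastrocnemius every 27-month library lies above every 6-month library of its sex, while in diaphragm no group passed the call.

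The adult-type epsilon gene passed the call in no muscle, sex or age. In gastrocnemius Chrne was 5.95 to 6.87 CPM (median 6.36) in females of 6 months and 6.14 to 8.60 (median 6.95) at 27 months, a log2 fold change of 0.17 ± 0.06 (adjusted p = 0.0243) that was under the fold limit. In females of the soleus it was 3.41 to 4.75 CPM (median 3.72) and 2.32 to 4.47 (median 3.09), and in males of the tibialis anterior 4.63 to 7.16 (median 5.70) and 3.51 to 6.06 (median 4.75). These changes were -0.33 ± 0.12 (adjusted p = 0.0407) and -0.25 ± 0.08 (adjusted p = 0.0302), also under the fold limit. The largest difference by size at 27 months, -0.51 ± 0.24 in male diaphragm, had an adjusted p of 0.162.

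The ratio of the 2 alternative subunit genes was compared within each library as log2 of (Chrng count + 0.5) over (Chrne count + 0.5), which needs no library size. It rose by 4.22 in female gastrocnemius, 4.54 in male gastrocnemius and 5.13 in female tibialis anterior from 6 to 27 months. In each of these 3 the 10 libraries of 27 months lay above all 8 of 6 months (two-sided exact permutation test over 43758 splits, p = 2.285e-05, the smallest it can give, adjusted p over 8 comparisons = 6.093e-05). It rose by 3.25 in male tibialis anterior (exact permutation p = 9.141e-05, adjusted p = 0.0001828), with 9 of 10 libraries above the 6-month maximum. In soleus the differences of 1.66 in females and 2.39 in males missed the adjusted limit (exact permutation p = 0.04454 and 0.04532, adjusted p = 0.06043 for both). In diaphragm they were 0.36 and 1.2 (exact permutation, adjusted p = 0.7266 and 0.3098).

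Per transcript length, the gamma gene made up a small share of gamma and epsilon together at 6 months, with medians of 0.344% and 0.177% in female and male gastrocnemius. At 27 months these medians were 6.23% and 4.26%. In tibialis anterior they went from 0.176% to 7.49% in females and from 0.407% to 4.64% in males, and the highest female library reached 48.9%. In soleus the medians were 2.31% and 5.79% in females, where the highest library of 27 months reached 38.9%, and 1.08% and 12.8% in males. The epsilon gene thus remained the more abundant of the 2 in the median library of each of these groups.

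**Figure D3:**
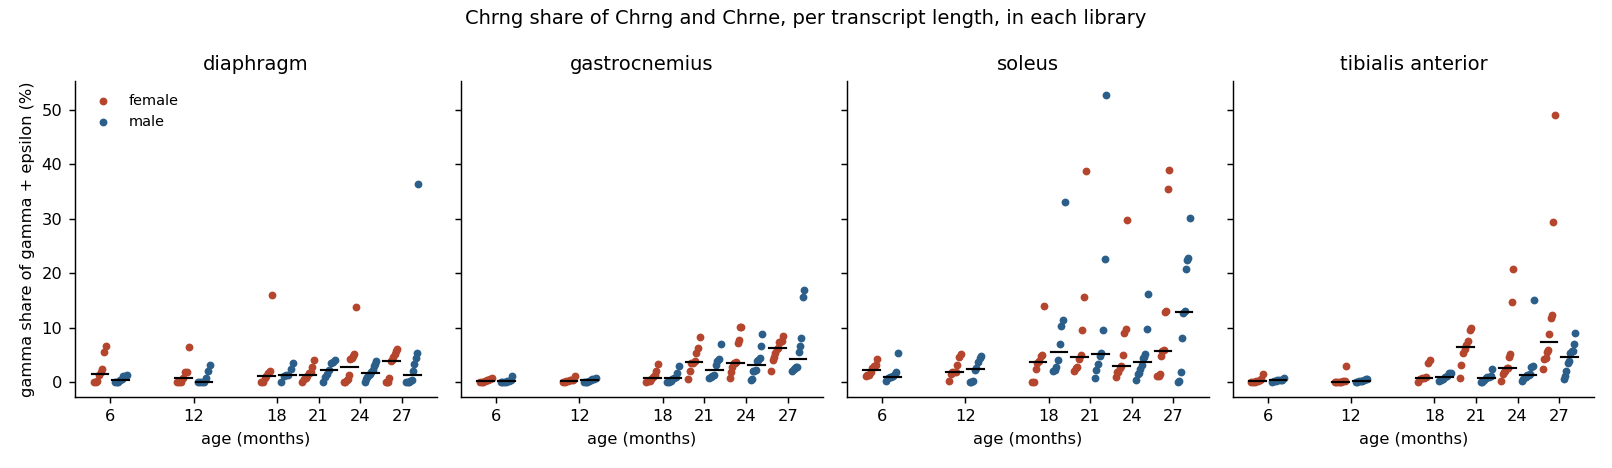
Share of Chrng in the sum of Chrng and Chrne, each per transcript length, in percent, for each library by age, muscle and sex; bars are group medians. The medians of gastrocnemius and tibialis anterior stay under 0.5% at 6 months and lie between 4.26% and 7.49% at 27 months.

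Of the subunits common to fetal and adult receptors, alpha1 rose in gastrocnemius and tibialis anterior. Chrna1 was 13.0 to 17.1 CPM (median 15.0) in female gastrocnemius at 6 months and 16.8 to 38.7 (median 27.6) at 27 months, a log2 fold change of 0.91 ± 0.11 (adjusted p = 2.87e-09). In male gastrocnemius it was 11.3 to 15.6 CPM (median 13.0) and 20.8 to 35.5 (median 28.7), a change of 1.12 ± 0.09 (adjusted p = 7.80e-13). The male groups did not overlap, and the female groups overlapped only at their edge.

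In tibialis anterior Chrna1 changed by 1.28 ± 0.20 in females and 0.76 ± 0.14 in males (adjusted p = 2.75e-06 and 0.000151), from medians of 11.3 and 9.20 CPM to 23.7 and 15.8. At 24 months it passed only in male gastrocnemius. In soleus, where it was most abundant, it was 36.2 to 54.5 CPM (median 50.8) and 35.3 to 64.7 (median 54.4) in females, a log2 fold change of 0.09 ± 0.10 (adjusted p = 0.598). Male soleus changed by 0.42 ± 0.11 (adjusted p = 0.0198), under the fold limit, and diaphragm by -0.21 ± 0.17 in females and -0.04 ± 0.12 in males.

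The delta gene, the genomic neighbour of gamma, rose in all 3 limb muscles. Chrnd was 1.5 to 2.0 CPM (median 1.71) in female gastrocnemius at 6 months and 3.05 to 4.77 (median 4.23) at 27 months, and 1.30 to 1.88 (median 1.56) and 2.25 to 4.55 (median 3.1) in males. The groups did not overlap in either sex, and the folds were 2.37 and 2.10 (log2 SE 0.13 and 0.17, adjusted p = 1.18e-10 and 5.99e-06). In tibialis anterior the changes were 1.29 ± 0.25 in females and 0.63 ± 0.19 in males (adjusted p = 0.000112 and 0.0150), and in soleus 0.59 ± 0.18 and 0.68 ± 0.20 (adjusted p = 0.0198 and 0.0447). The call in soleus was lost with limma-voom in both sexes (0.54, under the fold limit, in females and adjusted p = 0.0718 in males). In male tibialis anterior it was lost without replicate 5 of 27 months or without replicate 2 or 6 of 6 months (0.52, 0.58 and 0.57, under the fold limit). In diaphragm Chrnd had log2 fold changes of 0.13 ± 0.28 and -0.17 ± 0.23.

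The beta1 gene rose in every limb muscle and in both sexes. Chrnb1 was 18.0 to 25.7 CPM (median 21.6) in female gastrocnemius at 6 months and 28.7 to 44.2 (median 36.3) at 27 months, and 18.9 to 21.1 (median 20.0) and 29.3 to 43.7 (median 32.8) in males. The log2 fold changes were 0.80 ± 0.08 and 0.78 ± 0.07 (adjusted p = 3.06e-11 and 8.08e-12), with no overlap of the groups. They were 0.62 ± 0.07 and 0.65 ± 0.07 in tibialis anterior (adjusted p = 8.98e-09 and 1.86e-09), also with no overlap, and 0.61 ± 0.13 and 0.61 ± 0.15 in soleus (adjusted p = 0.000829 and 0.0120). The soleus values stood close to the fold limit and fell under it with limma-voom (0.55 and 0.57), as did female tibialis anterior without replicate 1 of 6 months (0.57). Male diaphragm of 27 months held 1 library at 32.2 CPM where the next was 15.8, and diaphragm changed by -0.20 ± 0.10 in females (adjusted p = 0.357) and by less than 0.01 in males.

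The alpha9 gene differed between the sexes and with age. Chrna9 was higher in females in gastrocnemius (log2 difference 2.19 ± 0.20, adjusted p = 1.13e-22), tibialis anterior (2.08 ± 0.22, adjusted p = 2.33e-18) and soleus (1.40 ± 0.16, adjusted p = 9.48e-15), averaged over ages. At 6 months it was 0.161 to 0.813 CPM (median 0.544) in female gastrocnemius and 0.0144 to 0.103 (median 0.0580) in males, with no overlap. It was the only one of the 7 called between sexes, where 7.85% of all genes were called in gastrocnemius, 5.1% in soleus, 4.27% in tibialis anterior and 7.35% in diaphragm. In diaphragm, at counts near 0, its difference was 1.26 ± 0.63 (adjusted p = 0.101).

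With age Chrna9 rose in gastrocnemius and tibialis anterior of both sexes. At 27 months it was 0.347 to 1.57 CPM (median 0.823) in female gastrocnemius, a log2 fold change of 0.80 ± 0.30 (adjusted p = 0.0401), and 0.0992 to 0.504 (median 0.220) in males, a change of 2.05 ± 0.49 (adjusted p = 0.00139). The female call was lost when any 1 of 8 libraries was left out (replicates 2, 3, 6 and 9 of 27 months and 0, 3, 5 and 7 of 6 months), with adjusted p from 0.0585 to 0.0942. It was also lost with limma-voom (adjusted p = 0.0551) and without the expression filter (adjusted p = 0.0541). In tibialis anterior the changes were 1.63 ± 0.36 and 2.47 ± 0.56 (adjusted p = 0.000681 and 0.00131), and the male call was lost with limma-voom (1.53, adjusted p = 0.0508). In soleus they were 1.84 ± 0.58 in females (adjusted p = 0.0195) and 2.12 ± 0.87 in males (adjusted p = 0.201), and 24 months passed in both (2.09 and 3.08), in males not with limma-voom (3.34, adjusted p = 0.0565). Counts in diaphragm were too low for Chrna9 to be tested within that muscle.

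**Figure D4:**
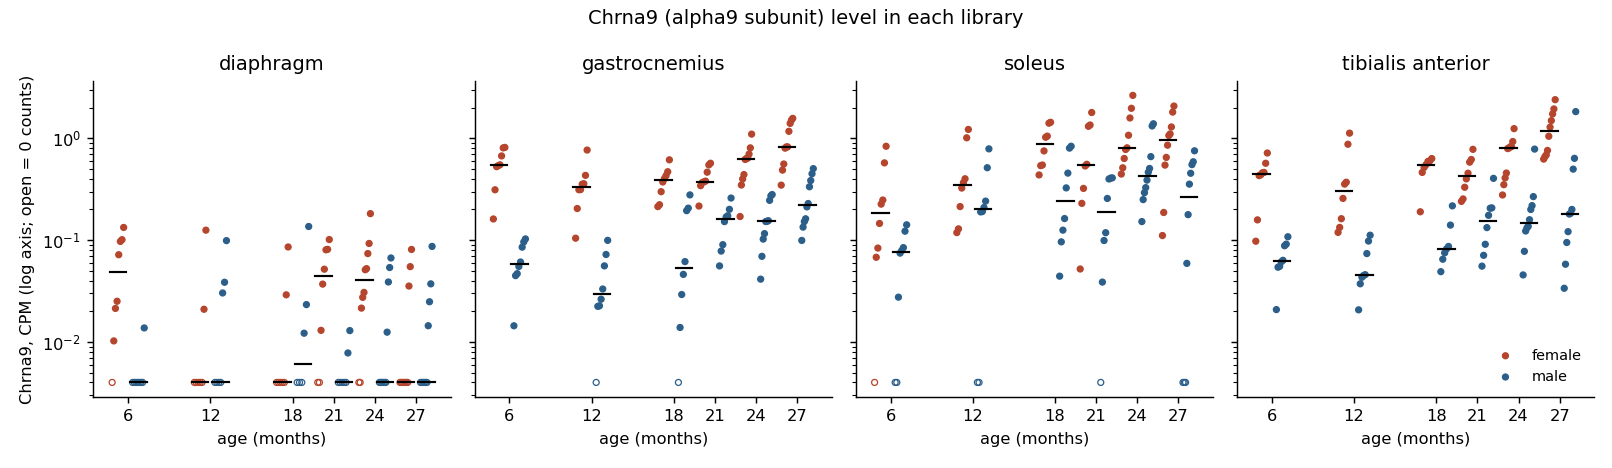
Chrna9 level in CPM (log axis) in each library by age, muscle and sex; bars are group medians and open symbols are libraries with 0 counts. Averaged over ages, female levels are higher in the limb muscles, with single points of both sexes overlapping, and 53 of 98 diaphragm libraries are at 0.

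The beta2 gene stayed low in all muscles. Chrnb2 was 0.157 to 0.307 CPM (median 0.267) in female gastrocnemius at 6 months and 0.249 to 0.563 (median 0.378) at 27 months, a log2 fold change of 0.69 ± 0.17 (adjusted p = 0.00162). That was its only call against 6 months. Male gastrocnemius had a close value of 0.61 ± 0.30 that did not pass (adjusted p = 0.138) but did with limma-voom (1.08, adjusted p = 0.0282) or without replicate 7 of 6 months (0.84, adjusted p = 0.0424), and the other muscles ranged from -0.32 in female tibialis anterior to 0.81 in female diaphragm.

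At 27 months 6 of 7 subunit genes were higher in female gastrocnemius and 5 in male gastrocnemius, where 4.98% and 5.41% of all genes were called. In soleus 4 and 3 were higher against 4.13% and 1.19% of all genes, and in tibialis anterior 5 and 5 against 7.01% and 4.1%. The soleus counts were not stable to single libraries: they fell to 1 or 2 when any 1 of 7 female libraries was left out (replicates 0 and 7 of 27 months and 0, 1, 2, 3 and 5 of 6 months), and to 0 or 1 without any 1 of 10 male libraries (replicates 0, 3 and 7 of 27 months and 0, 1, 2, 4, 5, 6 and 7 of 6 months). Without any 1 of 3 further female libraries (replicates 1 and 9 of 27 months and 4 of 6 months) the count was 3, and without any 1 of 5 further male libraries (replicates 2, 4, 6 and 8 of 27 months and 3 of 6 months) it was 2. In diaphragm 0 of 6 tested were called in either sex, where 1.24% and 5.6% of all genes were, and 1 in each sex had an unadjusted p below 0.05 (Chrnb2 in females and Chrne in males). DESeq2 and limma-voom also called 0 in diaphragm. None was lower at any age. The median log2 fold change of the 7 was 0.80 and 1.07 in gastrocnemius, 0.59 and 0.61 in soleus and 1.28 and 0.65 in tibialis anterior for females and males, where the median over all genes stayed between -0.03 and 0.03.

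The earlier ages held fewer calls. At 24 months female gastrocnemius had 3 (4.49% of all genes called) and male gastrocnemius 4 (3.91%). Female soleus had 1 (5.35%), male soleus 2 (2%), female tibialis anterior 1 (4.55%) and male tibialis anterior 3 (5.34%). Diaphragm had none, with 2.27% and 0.802% of all genes. These were Chrnd, Chrng and Chrnb1 in gastrocnemius, with Chrna1 in males, Chrna9 in soleus, with Chrnb1 in males, and Chrng in tibialis anterior, with Chrnb1 and Chrna9 in males. With limma-voom the male calls of Chrna9 in tibialis anterior (1.24, adjusted p = 0.145) and of Chrnb1 in soleus (0.53, under the fold limit) were lost. So were Chrna9 in male soleus (3.34, adjusted p = 0.0565) and Chrng in female tibialis anterior (3.46, adjusted p = 0.0726). Male soleus and female tibialis anterior then had 0 called.

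At 21 months Chrnd and Chrng were called in female gastrocnemius (4.1% of all genes), and Chrng alone in male gastrocnemius (3.59%), female soleus (5.63%) and female tibialis anterior (3.08%). Male soleus (0.769%), male tibialis anterior (2.3%) and diaphragm (1.27% in females and 7.38% in males) had none. At 18 months edgeR called none, against 4.01% and 1.23% of all genes in gastrocnemius, 1.66% and 0.326% in soleus, 1.31% and 0.787% in tibialis anterior and 0.216% and 0.168% in diaphragm, females first. At 18 months 0 to 3 of the genes in each muscle and sex had an unadjusted p below 0.05, limma-voom called none and DESeq2 called 1 each in female gastrocnemius, female soleus and male soleus. At 12 months none was called by the 3 tools, against 0.195% and 0.315%, 0.117% and 0.0456%, 0.144% and 0.152%, and 0% and 0.0622% in the same order of muscles, and at most 1 had an unadjusted p below 0.05.

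**Figure D5:**
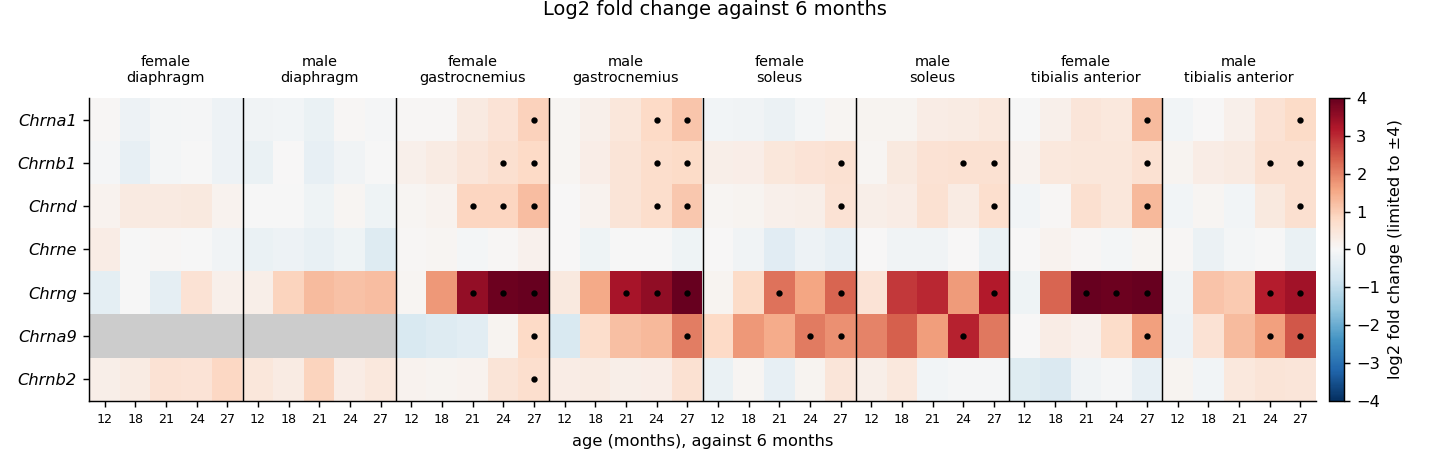
Log2 fold change of each subunit gene at 5 older ages against 6 months, by muscle and sex; colour gives the fold change, limited to 4 in either direction, dots mark calls and grey marks genes not tested. Calls gather at 21 to 27 months in gastrocnemius, soleus and tibialis anterior, with none in diaphragm and none for Chrne.

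Whether the change from 6 to 27 months differed between muscles was tested in the fit of all libraries. Compared with gastrocnemius, the change in diaphragm was smaller for Chrna1 (-1.12 ± 0.14, adjusted p = 5.80e-12), Chrnb1 (-0.87 ± 0.11, adjusted p = 3.39e-11), Chrnd (-1.17 ± 0.22, adjusted p = 1.29e-05) and Chrng (-3.54 ± 1.19, adjusted p = 0.0394). These were 4 of 7 genes where 9.03% of all genes differed at an adjusted p below 0.05, and Chrng no longer passed without the expression filter (adjusted p = 0.0525). Soleus differed from gastrocnemius for Chrna1 alone (-0.75 ± 0.13, adjusted p = 1.19e-05, against 5.86% of all genes). Tibialis anterior differed for none, against 0.569% of all genes, at an unadjusted p below 0.05 for none, and limma-voom also called none.

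The change with age did not differ between sexes at an adjusted p below 0.05 for any of the 7 in diaphragm (2.02% of all genes), gastrocnemius (0.148%), soleus (2.14%) or tibialis anterior (0.341%), and limma-voom also found none. The unadjusted p was below 0.05 for Chrne in diaphragm and gastrocnemius and for Chrna1 in tibialis anterior, where the female change was larger by 0.52 (adjusted p = 0.554). For Chrna9 in gastrocnemius, the female change minus the male change was -1.26 ± 0.72, with a 95% interval from -2.67 to 0.14.

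The shape over the 6 ages was described by comparing a constant, a line and a logistic curve by the Bayesian information criterion, with no test. Of 54 gene, muscle and sex combinations tested, 25 were not differentially expressed, 12 were late-logistic, 6 mid-logistic, 6 linear and 5 constant. Chrng was mid-logistic in gastrocnemius of both sexes, with inflections at 19 and 19.5 months, and in female tibialis anterior at 18.25 months, and late-logistic in male tibialis anterior at 26.5 months. Chrna1 was late-logistic in gastrocnemius and tibialis anterior of both sexes. Its inflections lay at 25.5 and 25.25 months in female and male gastrocnemius and at 23 months in male tibialis anterior. In female tibialis anterior the fit stopped at 27 months, the last age and the end of the range searched, so no inflection age is given there. The same held for the late-logistic fits of Chrna9 in female tibialis anterior, Chrnb1 in female gastrocnemius and Chrnd in male gastrocnemius. Chrnb1 was linear in soleus of both sexes and in female tibialis anterior, while Chrng and Chrnd were constant by this criterion in soleus.

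Within groups and with all muscles pooled, Chrna1, Chrnb1, Chrnd and Chrng varied together, whereas the other pairs of subunit genes were at most weakly related. Over deviations from the group means of all libraries, Chrna1 and Chrnd had a Pearson correlation of 0.61, Chrnd and Chrng of 0.47 and Chrna1 and Chrnb1 of 0.42, and the other pairs of these 4 genes lay between 0.37 and 0.40. The pairs with Chrne, Chrna9 or Chrnb2 ranged from -0.19 (Chrnb1 and Chrne) to 0.21 (Chrnd and Chrne). The values share library size and muscle composition, counting error adds to the spread of the sparse genes, and the values are descriptions. The pair Chrna1 and Chrnd reached 0.81 in tibialis anterior (102 libraries) and 0.44 in soleus (103). Some pairs departed from the pooled split in single muscles. Chrnb1 and Chrng had 0.15 in tibialis anterior, and Chrnb1 and Chrnd had 0.19 in gastrocnemius. In diaphragm Chrnb1 and Chrne had -0.35, and Chrnd and Chrne had 0.34. Over all libraries, Chrnd was the gene most like Chrna1 among 14182 genes tested in all muscles and sexes. Dupd1 was the one most like Chrnd (0.61). Chrng came closest to Aif1l (0.52) and then to Chrnd, and Chrnb1 to Pdlim3 (0.56), Myf6 (0.54) and the myogenin gene Myog (0.52). Chrne came closest to Hrc, a calcium-binding protein of the sarcoplasmic reticulum, and to the muscle chloride channel gene Clcn1 (0.61 and 0.60), and Chrnb2 to Psme2b (0.46).

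Over mean levels of the 48 groups, which carry the differences between muscles, the closest genes were Ampd3 for Chrna1 (0.98), Eda2r for Chrnb1 (0.95), Myl12a for Chrnd (0.97), Sypl2 for Chrne (0.98), Gdf5 for Chrng (0.88) and Gabarap for Chrnb2 (0.75). Gdf5 encodes a growth factor induced in denervated muscle.

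Among genes known to be induced by denervation, many rose at 27 months in the same limb muscles. Of 12 such genes, 8 and 10 were called higher in female and male gastrocnemius, 7 and 6 in soleus, 9 and 9 in tibialis anterior and 1 and 5 in diaphragm, and none was lower. The share of all genes called in the same comparisons was 4.98% and 5.41%, 4.13% and 1.19%, 7.01% and 4.1%, and 1.24% and 5.6%, and it applies to the lists that follow as well. Sln (sarcolipin, a regulator of the calcium pump) rose by a log2 fold change of 4.18 in male gastrocnemius, Krt18 by 5.71, Runx1 by 1.95 and Cdkn1a by 1.80 in female gastrocnemius. Of 13 genes of receptor clustering and the synapse, Musk, the receptor kinase that organises the endplate, was the only one called in any muscle, in female gastrocnemius (0.90), soleus (0.72) and tibialis anterior (0.91) and in male tibialis anterior (0.77). Dok7 and Lrp4, partners of Musk, had 0.49 and 0.39 in female gastrocnemius, under the fold limit.

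Of the 15 regulators of subunit transcription, 2 and 2 were higher in gastrocnemius, 0 and 2 in soleus, 4 and 1 in tibialis anterior, and 0 and 1 higher with 1 and 1 lower in diaphragm. The calls with the lowest adjusted p were Hdac4, a histone deacetylase, in female tibialis anterior (0.81, adjusted p = 6.33e-09), the myogenic factor gene Myf5 in male diaphragm, where it was lower (-1.17, adjusted p = 2.58e-06), and its relative Myf6 in female gastrocnemius (0.60, adjusted p = 3.72e-06). Myog, named because of its role given above, rose in gastrocnemius (0.80 and 1.23, adjusted p = 0.00215 and 0.000679) and tibialis anterior (1.39 and 1.22, adjusted p = 0.000101 and 0.00082). In soleus it was 0.54 and 0.51 and did not pass (adjusted p = 0.13 and 0.508). Of 7 receptor assembly genes tested, Ric3, a chaperone of nicotinic receptors, was called in 5 of the 8 comparisons, with 0.77 in female gastrocnemius, and no other was. Of the 9 other nicotinic subunit genes, 1 to 5 passed the filter on low counts, and Chrna2 in male gastrocnemius (1.23) was the only call. The lists were chosen with earlier results known, and their overlap with the subunit genes was not tested.

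Markers of other cell types also moved with age in some of these muscles. Slow-fibre markers were called higher for 3 of 4 in female gastrocnemius, where their sum went from 347.1 to 607.5 CPM (median 536.5) at 6 months to 665.2 to 1171 (median 903.3), and for 2 of 4 in male gastrocnemius (180.7 to 289.5, then 145.0 to 626.7). Satellite cell markers were lower for 3 of 4 in tibialis anterior of both sexes, where sums were 9.34 to 11.6 and 7.74 to 11.7 CPM at 6 months and 6.58 to 10.03 and 5.66 to 9.25 at 27 months. Elsewhere 0 to 2 of them were lower, and 1 was higher in male diaphragm. In female tibialis anterior liver markers were higher for 6 of 7, with a median sum of 7.24 CPM at 6 months and 54.7 at 27 months, and macrophage markers for 3 of 5, with 22.7 and 31.0 CPM. Of the slow-fibre markers there, 2 were higher and 1 lower. All 4 general fibre markers and all 5 fast-fibre markers stayed under the call in every muscle, Schwann cell markers had 0 to 2 calls of 6 in each, and none of the neuron markers that could be tested was called. Adipocyte markers had 2 calls in female tibialis anterior, T cell markers 4 in male diaphragm and 1 in female tibialis anterior, and B and plasma cell markers 0 to 2. Macrophage markers had 2 in male diaphragm and in gastrocnemius of both sexes, and 1 liver marker was lower in female diaphragm, male gastrocnemius and female soleus. The part of these shifts in the changes of the subunit genes was not tested.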

How the data were processed

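RNA of 4 muscles of male and female C57BL/6J mice at 6 ages was sequenced. According to the study's methods, total RNA libraries were strand-specific and read in pairs, and the authors deposited raw read counts per gene made in ArrayStudio (version not given in the sources used here) with mm10, named by the submitters' processing notes, and a gene model of their own built on RefSeq. Of 25091 rows, 633 repeated a symbol and were left out, keeping the row with the largest total. Groups came from the labels. The members and gene lists were chosen with earlier results of these data known.

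Each muscle and sex was fitted with all ages in edgeR 4.0.16 (R 4.3.3) after filterByExpr and TMM scaling. Older ages were each tested against 6 months with the quasi-likelihood test and Benjamini-Hochberg adjustment, and calls needed a fold above 1.5 and an adjusted p below 0.05. The study's methods used limma with a Bonferroni adjustment; counts were tested with edgeR here. Muscles and sexes, by the same call, and interactions, by the adjusted p alone, used 1 fit of the 48 groups. The ratio test was an exact permutation of libraries. Curves described log2 CPM (with a prior count of 0.5) against log age, and a line needed a Bayesian information criterion lower by 6 than the constant, a logistic curve lower by 2 than the line. Alternatives were limma-voom (limma 3.58.1), DESeq2 1.42.0, RLE scaling, no filter, Bonferroni, other limits, the run of sample numbers, a replicate block and leaving out single libraries. Leaving out libraries with liver transcripts, or the 6 diaphragm libraries low in slow-fibre transcripts, and the limma-voom block were chosen after seeing the data. On simulated counts for male gastrocnemius (15227 genes) all genes changed by folds of 2 and 4 were called, as were 0.0135% of unchanged genes. The changed genes were drawn from genes with higher counts, and all genes shared a fixed spread. The simulation thus does not cover genes as sparse as Chrng, Chrna9 and Chrnb2. Named genes were all 7 members, up to 4 per list with the lowest adjusted p at 27 months, and the closest genes by Pearson correlation, some of which are not reported here. At these depths the spread between mice sets the precision of the abundant subunits, and counting error adds to it for Chrng, Chrna9 and Chrnb2.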

Additional observations from a re-analysis of the deposited data

Results flagged for a closer look

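Each of the 7 genes was examined in each muscle and sex at 6 and 27 months, and in 20 of these 112 combinations of gene and group 1 library stood further from the others than Dixon's 95% limit allows. Chance flags about 1 in 20, and the combinations are not independent, since 1 library can stand apart for several genes. Male diaphragm of 6 months, replicate 2, was lowest for Chrna1 (6.61 CPM), Chrnd (0.288), Chrne (0.996) and Chrnb2 (0), and it also had the lowest slow-fibre marker sum of all diaphragm libraries (189.9 CPM). Male diaphragm of 27 months, replicate 8, was highest for Chrna1 (15.5 CPM) and Chrnb1 (32.2) and lowest for Chrne (0.195, 20 counts). Female diaphragm of 27 months, replicate 0, was lowest for Chrnd (0.589 CPM). These 3 libraries are among the 6 diaphragm libraries low in slow-fibre markers.

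In the limb muscles, Chrna1 was lowest in female soleus of 6 months, replicate 0 (36.2 CPM), and in male soleus of 27 months, replicate 1 (32.6). Chrnd was highest in male soleus of 6 months, replicate 3 (6.99 CPM). Chrng was lowest in female gastrocnemius of 27 months, replicate 6 (0.271 CPM, 19 counts), still above every library of 6 months. Chrna9 stood apart in libraries that held a single count, as the highest in male diaphragm (0.0137 CPM) and the lowest in male gastrocnemius (0.0144) and male tibialis anterior (0.0208) of 6 months. Chrnb2 was lowest in female tibialis anterior of 6 months, replicate 6 (0.0381 CPM), in male diaphragm of 27 months, replicate 1 (0.0433), and at 0 in 1 library each of male gastrocnemius of 6 months and male soleus of 6 and 27 months.

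The change from 6 to 27 months differed between muscles in 5 cases. The change in diaphragm minus that in gastrocnemius was, on the log2 scale, -1.17 for Chrnd, -3.54 for Chrng, -0.87 for Chrnb1 and -1.12 for Chrna1, and the change in soleus minus that in gastrocnemius was -0.75 for Chrna1, each by a test of the difference itself.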

How the results depend on the processing

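The count of subunit genes called at 27 months kept within 1.5 times its value in gastrocnemius and diaphragm under every setting tried. Female soleus (4) had 1 with limma-voom, 1 at an adjusted p below 0.01 and 0 with Bonferroni, and male soleus (3) had 0 under each of these. With Bonferroni female and male tibialis anterior (5 each) had 3 and 2. Leaving out 1 library gave 1 to 4 in female soleus and 0 to 3 in male soleus, and where the count moved by over 1.5 times it was 1 to 2 and 0 to 1. Gastrocnemius against tibialis anterior (1) had 3 with the run of sample numbers as a term and 2 with a lower fold limit. The run term was set within each muscle, so that count of 3 compares the muscles at a single run of each. Between sexes, soleus (1) had 2 with limma-voom and tibialis anterior (1) had 4 with a lower fold limit, and the change in soleus against gastrocnemius (1) had 2 with limma-voom. With a pseudocount of 5 the Chrng to Chrne ratio in soleus passed, at 1.52 in females (adjusted p = 0.0445) and 2.16 in males (adjusted p = 0.0159). Without 1 library it ranged from 1.32 to 1.95 in females and from 2.09 to 3.05 in males, and it passed without 1 of 3 female or 1 of 2 male libraries. Leaving out the libraries with liver transcripts, or the 6 diaphragm libraries low in slow-fibre markers, moved none of these counts. No result reversed. The cause of these shifts was not tested.

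Replicate numbers were shared across ages and muscles, and no source used here says what they mark. Same-numbered libraries of 2 limb muscles had a median correlation of deviations of 0.15, over 0.1 in 61.4% of 306 pairs. Of 612 settings of a limb library against another limb muscle, 252 gave the best correlation with its own number, among 7 to 10 libraries. This is a hint from the data that numbers tie some limb libraries together, but not every pair was related, so the numbers were not taken as a pairing. The muscle contrasts given above, which treat libraries as separate samples, do not account for such ties. Across ages of 1 muscle, where the age tests lie, the median was 0.0262. With the replicate block, female soleus had 1 gene called and male soleus 0, female gastrocnemius 5, and the other age counts at 27 months stayed the same. The calls lost were Chrna9 in female gastrocnemius (0.75, adjusted p = 0.0568), Chrna9 (1.59, adjusted p = 0.0738), Chrng (1.97, adjusted p = 0.0698) and Chrnd in female soleus, and Chrng (3.26, adjusted p = 0.0633), Chrnd and Chrnb1 in male soleus. At 21 months Chrng in female soleus was lost (1.60, adjusted p = 0.148), and at 24 months Chrnb1 in male soleus (0.49, under the fold limit). For muscle contrasts the block was run in limma-voom, and gastrocnemius against soleus then had 5. It could not be fitted between sexes, and the edgeR version was not run. Stricter curve margins (10 and 4) made Chrna9 in female gastrocnemius and Chrnd in male tibialis anterior constant.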
